A study of Mus musculus with 177 samples.

Results

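The FHL family consists of small proteins built almost wholly of LIM domains, zinc-binding modules that hold proteins together and are not known to read DNA. Its members sit at actin filaments, adhesion sites and muscle discs, and also enter the nucleus, where they act as cofactors of transcription factors. Fhl1 is the member of skeletal muscle and is encoded on the X chromosome, Fhl2 is best known from the heart, Fhl3 is a further muscle member, and Fhl5 was described in testis as an activator of the transcription factor CREM and is also known from smooth muscle. Expression of these 4 genes was followed in newborn mice after hypoxia and reoxygenation, in lung, brain and eye. The family was chosen because Fhl5 stood out among the lung genes that changed after hypoxia in an earlier look at the same arrays. The hypoxia change of Fhl5 in lung is therefore given as a description with no test, and Fhl1, Fhl2 and Fhl3 joined by name. Each member had 1 probe set annotated to it alone, so 4 of 19937 genes were taken, and none was lost to a filter on low values.

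The design text counts 62 mice of strain C57BL/6, aged 7 postnatal days. They breathed gas with an oxygen fraction of 0.08 for 120 min, or air (0.21) for the same time. The hypoxia groups then received 21, 40, 60 or 100% oxygen for 30 min (H21, H40, H60 and H100), and the control groups 21 or 100% (N21 and N100). All groups spent a further 150 min in air before tissue was taken. The labels name no transgene or drug. RNA was hybridised to 177 arrays (Affymetrix Mouse Gene 1.0 ST; lung 61, brain 59, eye 57), and all values are log2 after RMA, so a difference of 1 is a doubling. Tissues appear to have been normalized separately (array medians 6.25, 6.07 and 6.35), so levels were not compared between tissues, and levels of different genes were not compared because each probe set has its own brightness.

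The tissue labels were checked first. Markers of type 2 alveolar cells in lung, of neurons in brain and of lens in eye lay at a median rank of 99.7%, 98.0% and 99.9% among all genes of their own tissue. An array labelled lung (H40 replicate 10) correlated better with brain (0.985) than with lung (0.812), 1 labelled brain (H40 replicate 7) with eye (0.957 against 0.873), and 1 labelled eye (H40 replicate 9) with lung (0.954 against 0.880). These 3 arrays were left out, which leaves 60 lung, 58 brain and 56 eye arrays with 9 to 12 per group. Among the remaining lung arrays, 4 lay nearer to the other state than to their own label over the 209 rising and 121 falling genes called after hypoxia apart from Fhl5. They are N21 replicate 2, H40 replicate 2, H60 replicate 1 and H100 replicate 6, and they stay in the values below unless stated. Because they were picked by the outcome, values without them are a description only. Each tissue was fitted by itself with limma, while differences between tissues came from a joint fit of all arrays used. A gene was called where its p, adjusted by Benjamini-Hochberg over all 19937 genes, was below 0.05. Errors written ± without SD are standard errors of the fit.

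Fhl5 in lung was low in both normoxia groups and high in all 4 hypoxia groups. In the N21 lungs its log2 level had a lowest value of 5.24, a median of 5.47 and a highest of 7.65 (mean 5.70 ± 0.75 SD, n = 9). In the N100 lungs it ran from 4.96 over a median of 5.61 to 6.69 (mean 5.70 ± 0.45 SD, n = 10). The means of these control groups are equal only with the highest N21 value, that of replicate 2, one of the 4 arrays named above; the median is lower in N21. In H21 lungs the level ran from 5.59 over 7.44 to 8.45 (mean 7.25 ± 0.79 SD, n = 9). In H40 lungs it ran from 5.37 over 7.15 to 7.66 (mean 6.97 ± 0.69 SD, n = 9). In H60 lungs it ran from 5.65 over 7.10 to 8.31 (mean 7.10 ± 0.70 SD, n = 12). H100 lungs closed the series with 5.32, 7.04 and 7.91 (mean 6.97 ± 0.74 SD, n = 11). Every hypoxia group holds 1 array at the normoxia level, between 5.32 and 5.65, while the remaining arrays of those groups lie above the medians of both control groups. Of the 41 hypoxia arrays, 37 were above the normoxia mean and 31 above the second highest of the 19 normoxia arrays (6.69), but only 7 above the highest (7.65), so the ranges overlap.

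**Figure D1:**
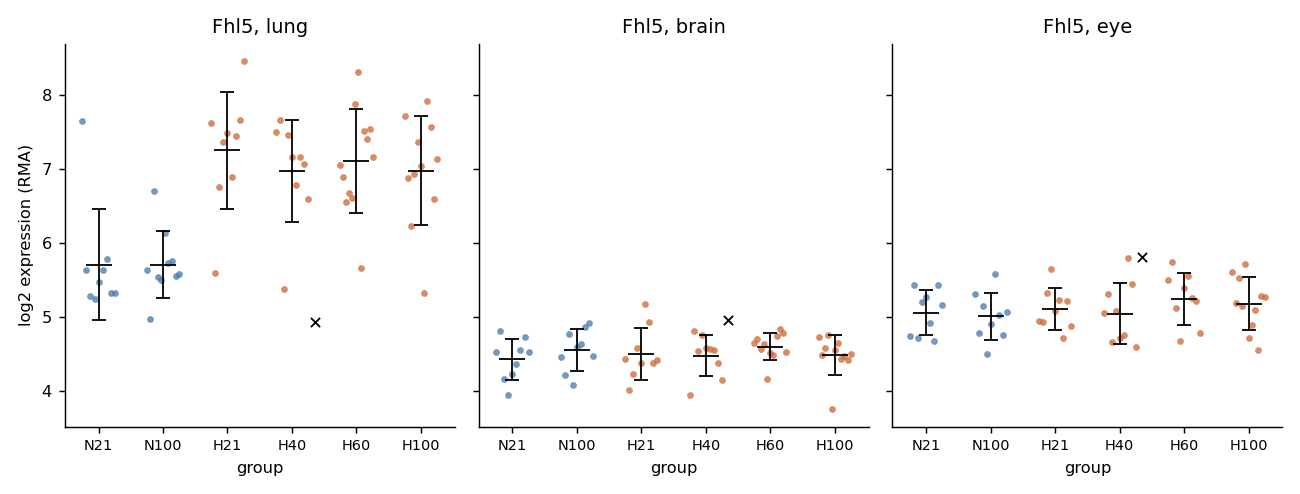
Fhl5 log2 expression (RMA, y axis) in every array of lung, brain and eye by group (x axis; blue, normoxia; orange, hypoxia); black bars are the mean ± SD of the arrays used and a black cross is an array with the profile of another tissue, left out. The hypoxia groups of lung have means of 6.97 to 7.25 against 5.70 in both normoxia groups, while no such shift is seen in brain or eye.

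In order of the lung means, H21 was followed by H60, H40, H100, N100 and N21. The only neighbours in that order further apart than the pooled SD of their arrays were H100 and N100, with a gap of 1.27 against an SD of 0.61. Since that step chose Fhl5, the gap is a description, while the order within each state did not exceed the spread between arrays. Over all groups the hypoxia mean exceeded the normoxia mean by 1.37 ± 0.18, which is 2.59-fold. Against N21 the difference was 1.55 ± 0.31 for H21, 1.27 ± 0.31 for H40, 1.40 ± 0.29 for H60 and 1.27 ± 0.30 for H100, comparisons that share their control arrays. H100 against N100, both with 100% oxygen, gave 1.27 ± 0.29. In this contrast of all hypoxia with all normoxia 1.66% of all genes in lung were called, Fhl5 among them, which is how it came to be chosen. A whole-tissue array cannot tell more RNA per cell from more cells that carry it.

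Without the 4 arrays that lay nearer to the other state, the hypoxia mean of Fhl5 exceeded the normoxia mean by 1.62 ± 0.14. The 38 hypoxia arrays then ran from 5.59 to 8.45 and the 18 normoxia arrays from 4.96 to 6.69, so that 7 hypoxia arrays still lay inside the normoxia range and 31 above it. The lowest of them, H21 replicate 1, had Fhl5 at 5.59 while its score over the other called genes (mean of the rising minus mean of the falling genes, relative to the normoxia mean) was 0.93, against a median of 0.60 in hypoxia and -0.02 in normoxia. Its median correlation with the other lung arrays over all genes was 0.940, against 0.981 to 0.989 for the other H21 lungs. In the 4 arrays themselves Fhl5 went with the other called genes and not with the label. The score of N21 replicate 2 was 0.73 with Fhl5 at 7.65. H40 replicate 2 scored 0.01 with Fhl5 at 5.37, H60 replicate 1 scored -0.12 with 5.65, and H100 replicate 6 scored -0.23 with 5.32. Whether these arrays were exchanged was not tested.

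**Figure D2:**
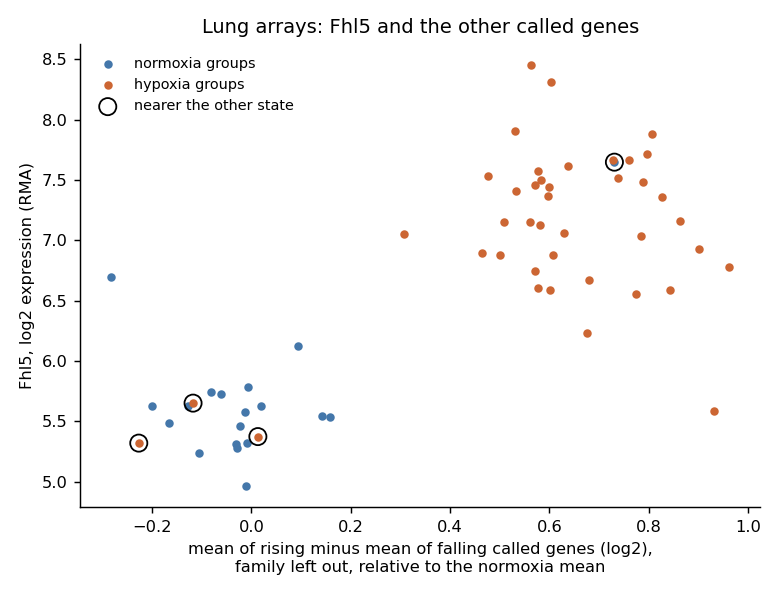
Each point is a lung array; the x axis is the mean of the 209 rising minus the mean of the 121 falling called genes other than Fhl5 (log2, relative to the normoxia mean) and the y axis is Fhl5 (log2, RMA). The 4 circled arrays lie in the cloud of the state opposite to their label, and H21 replicate 1 lies at the lower right with a score of 0.93 and Fhl5 at 5.59.

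The arrays fall into 3 stretches of the sample records, which may or may not be processing runs, and the lung difference of Fhl5 was present in each. In the first stretch the mean was 7.20 ± 0.84 SD in 25 hypoxia lungs and 5.75 ± 0.69 SD in 13 normoxia lungs, a difference of 1.45. The second, with only 5 and 2 lungs, gave 1.17, and the third, with 11 and 4, gave 1.32.

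The oxygen given during the 30 min of reoxygenation made no detectable difference to Fhl5 in lung. These comparisons were not used to choose it, and limma tested them over all genes. N100 minus N21 was 0.00 ± 0.30 (95% interval -0.61 to 0.61, adjusted p = 1.00), and 0.25 ± 0.24 without the 4 arrays nearer to the other state. H100 minus H21 was -0.28 ± 0.30 (interval -0.87 to 0.32, adjusted p = 1.00). The slope over 21 to 100% oxygen within the 4 hypoxia groups came to -0.20 ± 0.28 (adjusted p = 1.00), and the interaction of hypoxia with 100% oxygen to -0.28 ± 0.43 (interval -1.13 to 0.57, adjusted p = 1.00). The intervals are wide beside the hypoxia difference, so equality of the oxygen levels is not shown. In each of these 4 lung comparisons limma called 0% of all genes, with between 306 and 479 genes at an unadjusted p under 0.05 and none of the 4 members among them.

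No change of Fhl5 was detected in brain or eye. In brain Fhl5 had a median of 4.54 in 40 hypoxia arrays (3.75 to 5.17) and 4.52 in 18 normoxia arrays (3.95 to 4.92). The difference was 0.02 ± 0.08 (interval -0.13 to 0.18, limma adjusted p = 1.00). In eye the median was 5.17 in 38 hypoxia arrays (4.54 to 5.80) and 5.04 in 18 normoxia arrays (4.49 to 5.57). There the difference was 0.11 ± 0.09 (interval -0.08 to 0.30, limma adjusted p = 1.00). The ranges of both states overlap widely, with 2 hypoxia arrays of brain and 5 of eye above the highest normoxia array. As a description, the lung change exceeded that of brain by 1.35 ± 0.19 and that of eye by 1.26 ± 0.19, and eye exceeded brain by 0.09 ± 0.19 (limma adjusted p = 1.00). The mean level of Fhl5 ranked above 46.9% of genes in lung, but above only 16.2% in brain and 20.7% in eye, which places it among the dimmest 40% of genes there. In brain and eye 0.0853% of all genes each were called, and none of the 4 members was.

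Genes whose lung values ran most closely with those of Fhl5 within the groups were then ranked, by Pearson correlation over 60 arrays after each group's mean was subtracted; correlations are a description, since the top of 19937 genes was taken. Adgrl4, an adhesion receptor of endothelium, led with r = 0.81 (Spearman's rho 0.75). Tcim followed with r = 0.81 (rho 0.72). Lox, lysyl oxidase, which cross-links collagen and elastin, had r = 0.79 (rho 0.72). Ntrk2, the receptor of the neurotrophin BDNF, had r = 0.76 (rho 0.70), and Abat, which breaks down the transmitter GABA, r = 0.76 (rho 0.77). Ntrk2, Lox, Abat and Tcim were themselves called after hypoxia in lung, as were 1.66% of all genes. Ntrk2 rose by 0.73 ± 0.08 (limma adjusted p = 4.3e-08), from a median of 6.10 in normoxia (5.68 to 7.11) to 6.95 in hypoxia (6.24 to 7.55). Lox rose by 0.47 ± 0.09 (limma adjusted p = 0.00081), from a median of 9.27 (8.59 to 10.11) to 9.77 (9.08 to 10.26). Abat rose by 0.32 ± 0.07 and Tcim by 0.24 ± 0.07 (limma adjusted p = 0.0077 and 0.040), and Adgrl4 at 0.25 ± 0.08 missed the threshold (limma adjusted p = 0.12). The arrays that lie nearer to the other state enter these correlations. In brain, where Fhl5 is dim, the leading genes were Slc30a6, Enpp3, Fbxo8, Il13ra1 and Acss3 with r from 0.63 to 0.65 over 58 arrays. In eye they were Lvrn (r = 0.77), Adgrf5, Itga1, Lyve1 and Slc43a3 (r = 0.71 for the last), over 56 arrays. None of the leading genes was shared between tissues, and none of those in brain and eye was called after hypoxia.

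Fhl1, the X-linked member that in muscle binds titin and takes part in sensing stretch, did not change detectably. In lung its median was 11.81 in hypoxia (11.36 to 12.21, n = 41) and 11.81 in normoxia (11.36 to 12.12, n = 19). The difference was 0.08 ± 0.05 (interval -0.02 to 0.19, limma adjusted p = 0.77). In brain it was -0.03 ± 0.06 and in eye -0.09 ± 0.10 (interval -0.29 to 0.11), both with limma adjusted p = 1.00. The groups overlap throughout, and the mean lung level of Fhl1 ranked above 99.5% of genes. Because the gene is on the X chromosome, sex, read from the arrays (42 of 60 lungs female), was tested as a term. Females minus males gave 0.14 ± 0.05 in lung, 0.11 ± 0.06 in brain and 0.26 ± 0.10 in eye, none of which passed (limma adjusted p = 0.66, 0.96 and 0.62); 0.0552%, 0.0301% and 0.0351% of all genes did.

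In eye, Fhl1 was spread more widely within groups (SD 0.36) than in brain (0.20) or lung (0.18). Most eye arrays lay near the median of 10.64, and single arrays of N21, H21 and H40 lay at 9.51, 9.18 and 9.39. These 3 also had the lowest median correlations with the other eye arrays over all genes (0.963, 0.964 and 0.966, against a median of 0.984), and the 3 brain arrays with the lowest Fhl1 (8.55, 8.73 and 8.88) likewise stood lowest among the brain arrays used (0.970 to 0.972, against a median of 0.988). Over the 56 eye arrays, after subtraction of group means, Fhl1 ran with the mean of 7 endothelial markers (Pearson's r = 0.86, Spearman's rho 0.68, permutation p = 1e-05 for each, the smallest 100000 permutations can give; adjusted over 60 relations 0.0002). Without the 2 arrays farthest from the median r was 0.78, and it was 0.65 within the first stretch of records (n = 37) and 0.96 within the third (n = 12). With 11 pericyte markers r was 0.83 (rho 0.66, permutation p = 1e-05, adjusted 0.0002; 0.71 without the 2 farthest arrays, 0.61 and 0.95 in the same stretches). With 12 skeletal muscle markers r was 0.50 (rho 0.65, permutation p adjusted over 60 relations 0.0036 and 0.00015). Without the 6 eye arrays of low overall correlation, an alternative added after seeing the data, r over the other 50 was 0.66 with the endothelial, 0.59 with the pericyte and 0.78 with the skeletal muscle markers, so the order of these relations rests on arrays that stand apart over all genes. The endothelial mean in eye ran from 8.06 to 8.67 over all arrays, and its group medians from 8.45 to 8.55. What part the makeup of the samples has in the Fhl1 level was not tested.

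Fhl2, a cofactor of serum response factor and of beta-catenin, best known from heart muscle, was the most variable member in lung next to Fhl5, with a within-group SD of 0.57 against 0.15 in brain and 0.17 in eye. Its lung median was 7.70 in hypoxia (7.26 to 10.13, n = 41) and 7.66 in normoxia (7.35 to 9.14, n = 19). The difference was 0.03 ± 0.15 (interval -0.27 to 0.33, limma adjusted p = 1.00), and single arrays of several groups stand far above the rest in both states. The highest were H40 replicate 6 at 10.13, H40 replicate 3 at 9.28, N21 replicate 4 at 9.14 and N100 replicate 9 at 9.08. In these arrays Myh6, the atrial and adult ventricular myosin of heart muscle, stood at 12.10, 11.43, 10.92 and 10.79, against a median of 8.71 over hypoxia and 8.74 over normoxia lungs. Over 60 lung arrays, group means subtracted, Fhl2 ran with the mean of 12 heart muscle markers (Pearson's r = 0.95, Spearman's rho 0.91, permutation p = 1e-05 for each, the smallest possible; adjusted over 60 relations 0.0002 and 0.00015). The value was 0.94 without the 2 farthest arrays, 0.95 in the first stretch of records (n = 38) and 0.94 in the third (n = 15). With the heart marker mean as a covariate, added after seeing the data, the hypoxia difference of Fhl2 was 0.05 ± 0.05 (limma adjusted p = 0.94), so its standard error fell from 0.15 to 0.05.

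Heart markers were not called in lung after hypoxia (0 of 12, 0 at an unadjusted p under 0.05), where 1.66% of all genes were. Their mean had group medians from 7.71 to 8.11 and single arrays up to 11.26 in H40, 10.10 in N100 and 9.73 in N21. High arrays thus occurred with and without hypoxia. In lung no relation of Fhl5 with these markers was detected (r = 0.02, permutation p adjusted over 60 relations = 0.92). The same held for 17 smooth muscle genes (r = 0.14, adjusted 0.44), 11 pericyte markers (r = 0.20, adjusted 0.21) and 7 endothelial markers (r = 0.09, adjusted 0.64). For smooth muscle, r was 0.32 in the first stretch of records and -0.45 in the third. In eye Fhl5 ran with smooth muscle genes (r = 0.48, adjusted 0.0027) and skeletal muscle markers (r = 0.43, adjusted 0.0069). There r was 0.32 for heart (adjusted 0.039), 0.31 for endothelial (0.045) and 0.15 for pericyte markers (0.41). Spearman's rho was 0.45 for endothelial (permutation p adjusted 0.0037) and 0.18 for heart markers (adjusted 0.32). Without the 6 eye arrays of low overall correlation, added after seeing the data, r was 0.62 for endothelial, 0.50 for smooth muscle and 0.48 for skeletal muscle markers. It was then 0.39 for heart and 0.35 for pericyte markers, so the order of these relations rests on those arrays. In brain none passed (smallest adjusted 0.23). In brain Fhl2 differed by 0.01 ± 0.05 between hypoxia and normoxia (medians 7.34 and 7.29), and in eye by -0.01 ± 0.05 (medians 6.97 and 6.95), with limma adjusted p = 1.00 in both.

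**Figure D3:**
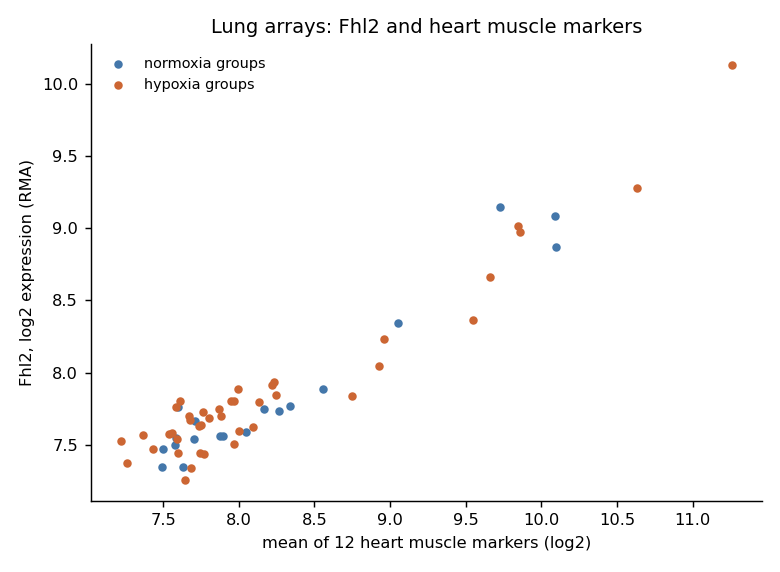
Each point is a lung array; the x axis is the mean of 12 heart muscle markers and the y axis is Fhl2 (both log2, RMA), blue for normoxia and orange for hypoxia groups. Fhl2 rose with the heart markers over arrays of both states (r = 0.95 after subtraction of group means), with H40 replicate 6 at the upper right (11.26 and 10.13).

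Fhl3, which binds actin and is known from skeletal muscle, did not pass in any tissue either. In lung its median was 6.76 in hypoxia (6.29 to 7.46) and 6.80 in normoxia (6.28 to 7.66), a difference of -0.05 ± 0.10 (interval -0.26 to 0.16, limma adjusted p = 1.00). In brain the difference was -0.07 ± 0.06 (interval -0.20 to 0.05, limma adjusted p = 1.00). The value furthest from 0 outside Fhl5 in lung was that of Fhl3 in eye. There the median was 6.83 in 38 hypoxia arrays (6.22 to 7.37) and 6.99 in 18 normoxia arrays (6.65 to 7.44). The difference of -0.17 ± 0.07 (interval -0.32 to -0.03) had an unadjusted p of 0.016, but a limma adjusted p of 0.78. The ranges overlap in part, since hypoxia arrays reach below the lowest normoxia array, and 9 of the 38 hypoxia arrays lay above the normoxia mean. Over the 3 stretches of records it was -0.22, -0.15 and -0.07. In the same eyes all 12 skeletal muscle markers were lower after hypoxia, with a median of -0.27 against 0.00 over all genes. Of the 12, 0 were called, against 0.0853% of all genes, and 9 had an unadjusted p under 0.05, as did 1001 of all 19937 genes. The largest were Casq1, which stores calcium in fast muscle, at -0.36 ± 0.12 and Actn3, a fast-fibre disc protein, at -0.35 ± 0.13 (limma adjusted p = 0.49 and 0.69). Of the smooth muscle genes 12 of 17 were lower in eye, and of the heart markers 10 of 12. After subtraction of group means, Fhl3 in eye had r = 0.48 with smooth muscle genes (permutation p adjusted over 60 relations 0.0025). It had r = 0.40 with heart (adjusted 0.014) and 0.34 with skeletal muscle markers (adjusted 0.032, but 0.10 by Spearman's rho). With endothelial and pericyte markers r was -0.02 and -0.06. The part of these genes in the Fhl3 value was not tested.

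**Figure D4:**
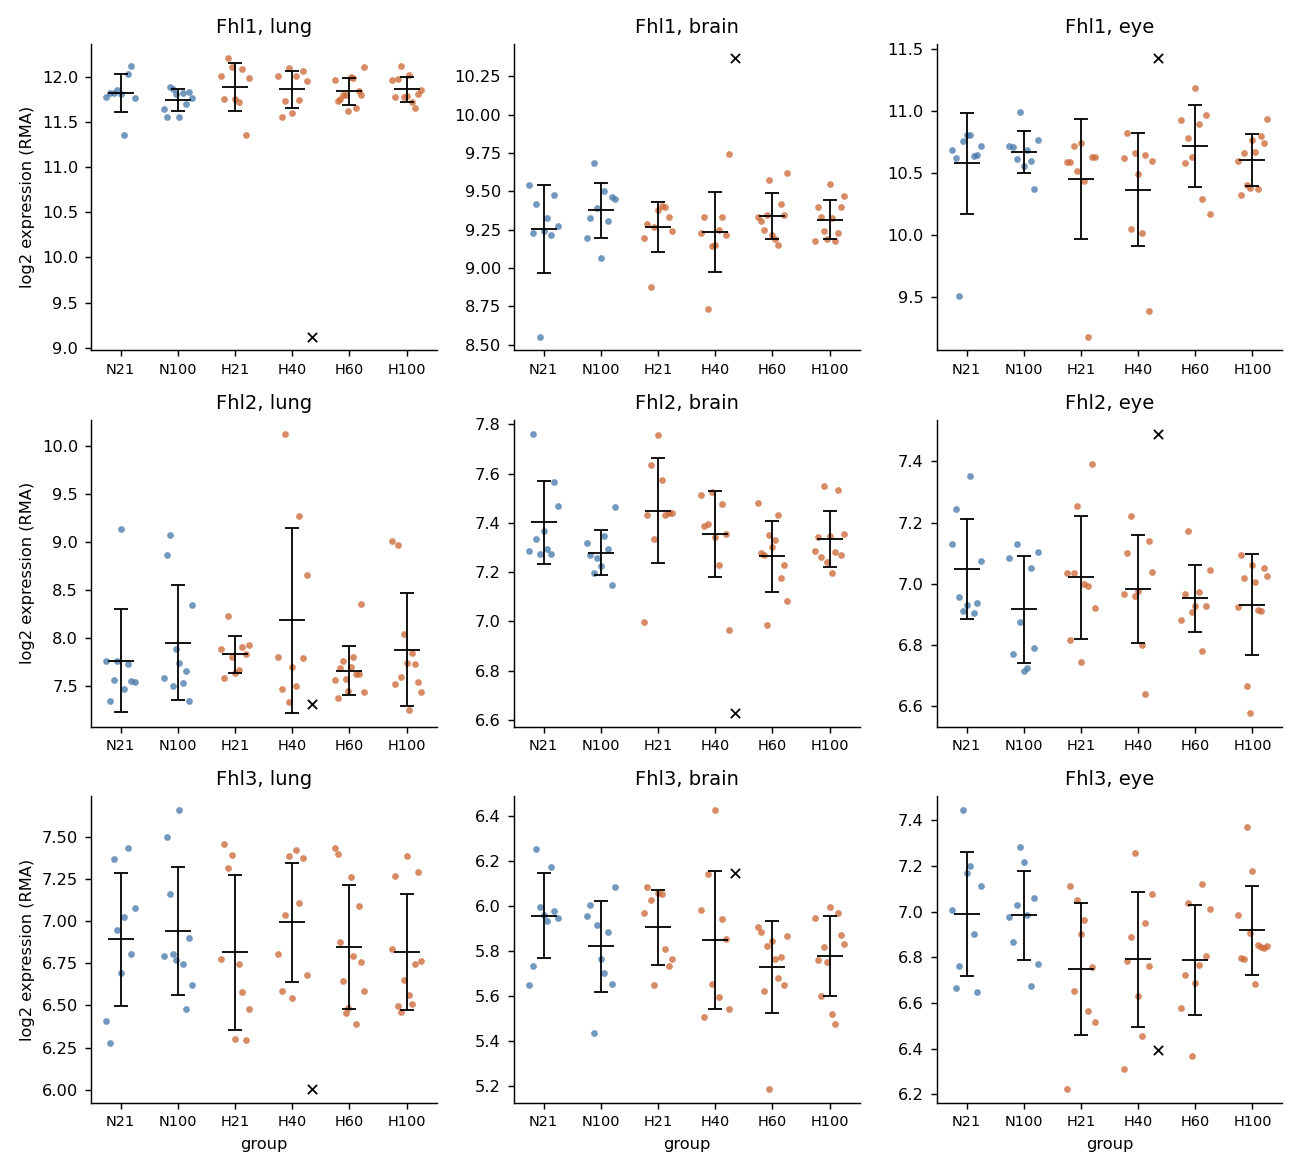
Log2 expression (RMA, y axes, which differ between panels) of Fhl1, Fhl2 and Fhl3 in every array of lung, brain and eye by group (x axis; blue, normoxia; orange, hypoxia); black bars are the mean ± SD of the arrays used and crosses are the 3 arrays left out. Hypoxia and normoxia groups overlap in all panels, single lung arrays stand high for Fhl2 (up to 10.13) and single eye arrays low for Fhl1 (down to 9.18).

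Over 10 contrasts in 3 tissues, Fhl1, Fhl2 and Fhl3 gave 90 limma tests, of which 0 passed and 3 had an unadjusted p under 0.05. All 3 of those belonged to Fhl3, in eye for all hypoxia and for H21 against N21, and in brain for H60 against N21. The smallest adjusted p of the 90 was 0.77. In the same fits of single groups against N21, the share of all genes called in lung was 0.0502% for H21, 0.00502% for H40, 0% for H60 and 0.0201% for H100, and it was 0.105% for H100 against N100. In eye it was 0.00502% for H21 against N21, and in brain 0.01% for H100 against N100. No tissue difference of their hypoxia change passed either; the largest was that of Fhl1 between lung and eye, 0.17 ± 0.10 (limma adjusted p = 1.00), where 0.396% of all genes were called. The share called was 0.451% for lung against brain and 0.01% for eye against brain.

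**Figure D5:**
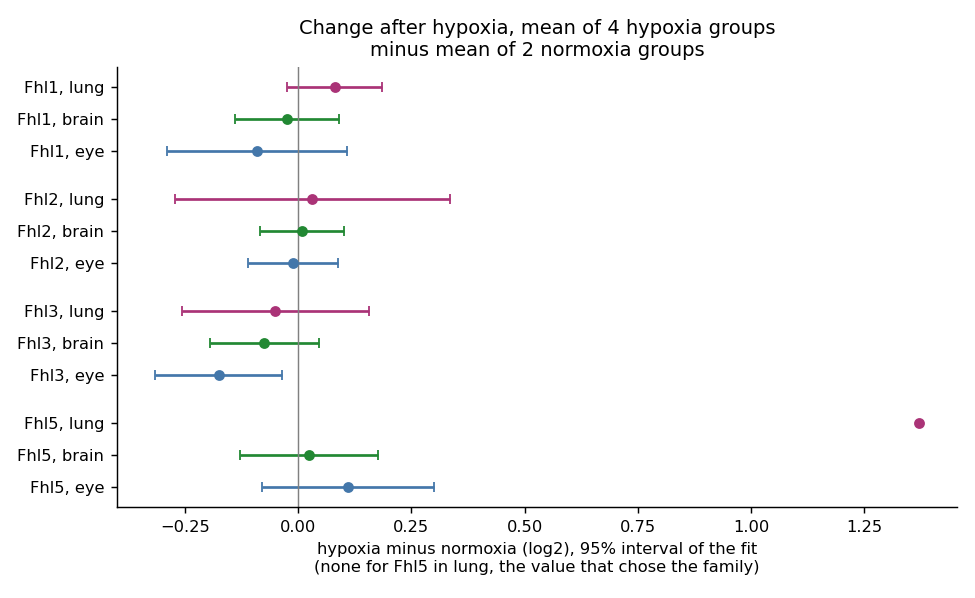
Difference between the mean of the 4 hypoxia groups and the mean of the 2 normoxia groups (log2, x axis) for each member and tissue; points are estimates and bars 95% intervals of the limma fit. Fhl5 in lung, which chose the family, has no bar and stands at 1.37; the other intervals include 0, except that of Fhl3 in eye, which ends at -0.03 before adjustment over all genes.

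Other LIM domain proteins of adhesion sites, muscle discs and the actin skeleton were a list of 35 genes, of which 34 were measured. Their median change in lung was 0.04 against 0.01 over all genes. Among them 2 rose, 0 fell and 32 did not pass, against 1.05% of all genes called higher and 0.607% lower. At an unadjusted p under 0.05, 3 were higher and 3 lower, while 1794 of all 19937 genes passed that mark in either direction. Lims2, the partner of integrin-linked kinase also known as PINCH2, rose by 0.37 ± 0.05 (limma adjusted p = 1e-05). Its median was 8.61 in 19 normoxia lungs (8.33 to 9.05) and 9.02 in 41 hypoxia lungs (8.48 to 9.38), so each range reaches past the other median. Crip2, a small LIM protein of vessels and heart, rose by 0.14 ± 0.04 (limma adjusted p = 0.034), a call lost on leaving out any 1 of 6 normoxia arrays (N100 replicates 1, 6 and 8, N21 replicates 1, 6 and 9; 0.12 to 0.14, limma adjusted p up to 0.089). In brain and eye 0 of the 34 were called, against 0.0853% of all genes in each, with 1 and 2 at an unadjusted p under 0.05.

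Of the 26 genes of proteins reported to bind FHL proteins, 23 were measured and 0 were called in lung, where 1.66% of all genes were. Of the 23, 4 had an unadjusted p under 0.05, as did 1794 of all 19937 genes. The median change was 0.00 against 0.01 over all genes. Largest were Zbtb16, a zinc finger repressor that responds to glucocorticoids, at 0.78 ± 0.29 (limma adjusted p = 0.25) and Itga7, the laminin-binding integrin of muscle, at 0.21 ± 0.07 (limma adjusted p = 0.12). Zbtb16 ran from 6.52 to 10.13 in hypoxia lungs (median 7.60) and from 6.63 to 9.93 in normoxia lungs (median 6.996). Leaving out N21 replicate 2 alone brought Itga7 under the threshold (0.24, limma adjusted p = 0.046). Without the 4 arrays nearer to the other state, which were picked by the outcome, the values were 0.27 for Itga7 and 1.02 for Zbtb16, with no test. In brain and eye 0 of 23 were called, against 0.0853% of all genes in each, with 1 and 3 at an unadjusted p under 0.05.

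Smooth muscle genes were described beside Fhl5 because that tissue expresses it. Of 17 in lung 1 rose, 0 fell and 16 did not pass, against the 1.05% of all genes called higher, and 5 were higher and 0 lower at an unadjusted p under 0.05. The median was 0.08 against 0.01 over all genes. Tagln, the actin-binding protein transgelin, rose by 0.22 ± 0.06 (limma adjusted p = 0.021), from a median of 10.65 (10.34 to 11.01) to 10.86 (10.39 to 11.32). The call was lost with the brain-like array kept (0.11, limma adjusted p = 1.00) and in the first stretch of records alone (0.20, limma adjusted p = 0.14). Of 11 pericyte markers 1 rose (against the same 1.05%), Cspg4 by 0.18 ± 0.05 (limma adjusted p = 0.040), and the median was 0.00. That call was lost on leaving out any 1 of 21 of the 60 arrays (limma adjusted p up to 0.10, without N21 replicate 9). Of 8 neuron markers 2 rose, with a median of 0.00 and against the same 1.05% of all genes, Stmn2 by 0.30 ± 0.07 and Mapt by 0.19 ± 0.05 (limma adjusted p = 0.0072 and 0.046). The Stmn2 call was lost with the brain-like array kept (0.40, limma adjusted p = 0.34) and in the first stretch (0.25, limma adjusted p = 0.46). The Mapt call was lost on leaving out any 1 of 38 of the 60 arrays (limma adjusted p up to 0.12, without N21 replicate 6). Serum response factor and its coactivators (0 of 4), endothelial (0 of 7), ciliated (0 of 7), skeletal muscle (0 of 12) and type 2 alveolar markers (0 of 7) gave no calls in lung, with 0, 1, 0, 0 and 1 at an unadjusted p under 0.05. In brain, where 0.0803% of all genes were called higher and 0.00502% lower, none of these lists held a called gene in the limma fit, and at most 2 genes of a list had an unadjusted p under 0.05. In eye (0.0652% higher and 0.0201% lower) none did either, and outside the skeletal muscle list at most 5 genes of a list had an unadjusted p under 0.05.

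Promoter sequences are shown because the members differ in whether a motif of a muscle factor lies close to the starts searched. The RefSeq promoter windows used (GRCm38.p6) cover 7 start sites of the family, 2 for Fhl1, 2 for Fhl2, 1 for Fhl3 and 2 for Fhl5. The 250 bases before each were searched on both strands. Inner and outer name the 2 searched starts of a gene. The gene bounds of Fhl1, Fhl2 and Fhl3 reach further upstream than these starts, and any start there was not searched. The motifs were the cAMP response element TGACGTCA bound by CREB and CREM, its part TGACG, the form ACGTG of the hypoxia response core, the CArG box of serum response factor and the glucocorticoid response element. The form GCGTG of the hypoxia response core was not searched. The window before the outer Fhl5 start, on the minus strand at chr4:25242853-25243102 (GRCm38.p6, 44.0% G and C), holds none of them and so has no capitals:
Fhl5: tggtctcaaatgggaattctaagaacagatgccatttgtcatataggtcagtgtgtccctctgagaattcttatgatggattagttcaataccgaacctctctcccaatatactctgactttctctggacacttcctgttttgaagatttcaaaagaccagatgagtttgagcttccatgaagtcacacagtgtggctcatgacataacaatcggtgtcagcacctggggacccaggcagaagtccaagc

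The inner Fhl5 window and the Fhl3 window hold none of the searched motifs either. The unsearched letters GCGTG do occur in the inner windows of Fhl5 and Fhl2, and no share over all windows is known for them. CArG boxes lie before 1 searched start of Fhl1 and both searched starts of Fhl2. That is 3 of 7 windows of the family against 1.47% of 32851 promoter windows of the same length. They are shown in capitals with 10 bases on each side, for Fhl1 on the plus strand at chrX:56779571-56779600, and for Fhl2 on the minus strand at chr1:43163973-43164002 and chr1:43196838-43196867 (GRCm38.p6):
Fhl1: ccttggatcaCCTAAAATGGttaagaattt
Fhl2 inner start: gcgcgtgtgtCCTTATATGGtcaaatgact
Fhl2 outer start: catttagagaCCAAAAAAGGcttgcaggag

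The first box lies 102 to 93 bases before its start, and the Fhl2 boxes 31 to 22 and 96 to 87 bases before theirs. TGACG occurs before the inner Fhl2 start (17.8% of all windows hold it) and ACGTG before the outer one (16.6%). TGACGTCA, in 1.55% of all windows and overlapping the TGACG search, and the glucocorticoid response element, in 0.0091%, were in none of the 7. A match is a run of letters and not a measured binding site, and the lack of one in these windows says nothing about the factors.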

How the data were processed

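The deposited log2 values were made by the authors with RMA per the submitters' processing notes (version not given); the labels' protocols name a gradient and a blood RNA kit although the tissue is solid. Of 34760 probe sets 21640 carry 1 gene symbol, 1321 several and 11799 none; 21553 matched RefSeq by Entrez identifier. The brightest probe set per gene and tissue was kept (19937 genes). No 2 arrays were identical. Groups and replicate numbers came from titles; no label ties an array to a mouse, so p-values measure the spread between arrays.

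Changes were fitted with limma 3.58.1 in R 4.3.3 (lmFit, eBayes, two-sided, 6 groups per tissue), Benjamini-Hochberg over all genes. Differences between tissues used a joint fit of all groups of all tissues, which treats arrays as independent. Since 62 mice gave 177 arrays, tissues of the same mouse must recur, and their errors and p-values do not take this into account. On simulated data for all hypoxia minus all normoxia over 19937 genes in lung, 99 of 100 changes of 0.5 and 100 of 100 of 1 were called. With them, 9 unchanged genes were called. In brain 97 and 100 were called, and in eye 94 and 99. The simulated noise was normal and independent between genes, with no arrays of the opposite state. The changed genes were drawn at random, so the power for the members is not given. Members, lists and tests were chosen with earlier results of these data known. Named genes were the members, up to 4 called members of each list (or the largest 2), and the 5 genes most correlated with Fhl5 per tissue, skipping predicted genes. Array number limits precision. Sequences and names are from RefSeq tables (GRCm38.p6). The array weighting, filtering, normalization, block, covariate and array-removal alternatives are given at the end.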

Additional observations from a re-analysis of the deposited data

Results flagged for a closer look

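In 52 groups of 4 to 10 arrays of the members, 8 held an array further from its nearest neighbour, relative to the group's range, than Dixon's test allows at the 95% level; chance gives about 1 in 20 groups. For Fhl5 in lung, N21 replicate 2 stood at 7.65 against a group median of 5.47, and H40 replicate 2 at 5.37 against 7.15; both lay nearer to the other state over the other called genes. For Fhl2 in lung, N21 replicate 4 stood at 9.14 against 7.56, with Myh6 at 10.92. Fhl1 was low in eye in N21 replicate 7 (9.51 against 10.69) and H21 replicate 9 (9.18 against 10.59), in brain in N21 replicate 7 (8.55 against 9.27) and H21 replicate 8 (8.88 against 9.29), and in lung in N21 replicate 9 (11.36 against 11.82). No difference between tissues in the hypoxia change of Fhl1, Fhl2 or Fhl3 passed the test.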

How the results depend on the processing

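The hypoxia minus normoxia difference of Fhl5 in lung kept its sign under 12 alternatives (1.32 to 1.62), and ran from 1.33 to 1.49 with each array left out in turn. It was 1.57 with array weights and 1.62 without the 4 arrays nearer to the other state, which also raised H40, H60 and H100 against N21 to 1.71, 1.78 and 1.68; that removal follows the outcome. Fhl1 in lung was 0.013 with all arrays as labelled and 0.022 in the first stretch of records, where Fhl5 in brain was 0.11. Of 1506 alternative tests of the members 0 passed (smallest limma adjusted p 0.25). Of 122 alternatives of the other 11 hypoxia differences, 7 changed sign, none moving by more than 0.086. The number of called lung genes was 331, but 95 with all arrays as labelled, 834 with array weights, 504 with the record stretch as a block, 622 without the 4 arrays and 23 in the first stretch (fewer arrays). In brain 17 became 41 with array weights, 4 in the first stretch and 30 without arrays of low correlation, and 11 to 32 with 1 array left out (11 without N100 replicate 3, 32 without N21 replicate 2). In eye 17 became 8, 53, 32 and 0 with all arrays, array weights, the record block and the first stretch, and up to 26 without N21 replicate 2. Lims2 kept its call throughout. Those of Crip2, Cspg4, Mapt, Stmn2 and Tagln were lost with all arrays as labelled and in the first stretch; the cause was not tested. Quantile normalization again also ended those of Crip2, Cspg4 and Mapt, and leaving out low-correlation arrays that of Cspg4. Array weights brought Itga7, Tek (lung), Pecam1 (brain) and Vtn (eye) under the threshold, the record block Itga7 and Tek, and leaving out N21 replicate 2 Vcl in brain. The titles number arrays within groups; same-numbered arrays deviated together only in part (median correlation 0.13 in lung, 77 of 139 pairs over 0.1; 0.13 in brain, 0.03 in eye). With the replicate block no member was called, Fhl5 in lung was 1.36 and Cspg4 lost its call (limma adjusted p = 0.066). Of the 5 genes most like Fhl5 in lung, 2 stayed with Spearman's rho and 2 with group means kept. Filtered at the dimmest 40% of genes, Fhl3 and Fhl5 in brain and Fhl5 in eye drop out.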
